A study of Mus musculus with 12 samples.

Results

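The mouse mitochondrial chromosome carries 37 annotated genes, and all of them were present among the 41388 genes counted in brain cells of mice with or without a deletion of Bmal1 in astrocytes. They were chosen by position alone, as every gene that the deposited files place on the chromosome named MT. The set holds 13 protein genes, 2 ribosomal RNAs (rRNAs) and 22 transfer RNAs (tRNAs). RNA was sequenced in 12 libraries from 8 mice, which came from isolated astrocytes or from the remaining brain cells, called flowthrough. Astrocytes were held back with magnetic beads against ACSA-2, a surface epitope of astrocytes, after collagenase digestion of the brain.

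All animals are labelled Bmal fl/fl; ALDH1L1-CreERT2 on a C57BL\6 background, with tissue at 7 months of age. Every mouse, Cre-negative controls included, received 2 mg of tamoxifen a day by gavage for 5 days at 2 months of age. Cre-negative animals are called wild type (WT) and Cre-positive animals astrocyte knockout (aKO). The Aldh1l1 promoter drives the inducible Cre, which aims the deletion at astrocytes. Astrocyte libraries came from WT animals 201, 202 and 265 and from aKO animals 203, 205, 208, 221 and 222. Flowthrough was sequenced for WT 201 and 202 and aKO 203 and 205, the 4 mice with a library of each fraction. The astrocyte library of animal 202 is wild type by its title and knockout by its genotype field, and was kept as WT. Flowthrough titles, unlike the others, end in b, a mark the sources used here do not explain. Anything it marks cannot be told apart from the fraction.

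Mitochondrial DNA is transcribed from both strands into long precursors that cover several genes at once. The tRNAs lie between most of the rRNA and protein genes, and their excision frees the separate RNAs. The protein genes encode core subunits of respiratory complexes I, III and IV and of the ATP synthase, while all other subunits, the polymerase and the processing enzymes come from nuclear genes. In the brain, astrocytes are known for high glycolysis beside active mitochondrial respiration.

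The 8 astrocyte libraries held 21816637 to 62655238 counts each, and the 4 of flowthrough 33019572 to 53868165. At this depth the 95% exact binomial interval of a mitochondrial share was at most 0.0197 percentage points to either side, which covers counting error only. Marker lists held 10 genes each (7 for erythroid cells), and no marker in the files was at 0 in all libraries. Marker percents are of the counts on genes that are not mitochondrially encoded. Astrocyte markers took 0.358% to 2.15% of these counts in astrocyte libraries and 0.0229% to 0.576% in flowthrough. Markers of oligodendrocytes stood at 0.457% to 3.01% against 0.0988% to 0.762%, and those of neurons at 0.0556% to 0.261% against 0.00690% to 0.0793%. Microglial markers (0.0467% to 0.0941%), leukocyte markers (0.0211% to 0.0833%) and erythroid markers (0.0225% to 0.227%) were lower in every astrocyte library than in flowthrough (0.616% to 1.17%, 0.286% to 0.553% and 0.347% to 1.496%). Choroid plexus markers took 2.12% to 21.9% in astrocyte libraries and 10.3% to 35.1% in flowthrough. Arntl, the official symbol of Bmal1, had 2.13 to 6.80 CPM (counts scaled to the library total) in WT astrocytes and 5.05 to 25.01 CPM in aKO astrocytes. A count over the whole gene includes exons that Cre leaves in place, so it checks neither the deletion nor the labels.

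The 37 genes lie almost end to end in GRCm38, from MT:1 to MT:15422, and 28 are annotated on the plus strand. The minus strand holds 9 genes, namely 8 tRNAs and mt-Nd6, a complex I subunit. The 4 tRNAs with the highest mean counts are all among these 9. They are mt-Tp (MT:15356-15422), mt-Tq (MT:3772-3842), mt-Ts1 (MT:6870-6938) and mt-Te (MT:14071-14139), which read proline, glutamine, serine and glutamate codons. Their gene sequences from GENCODE vM21 are shown because they carry most of the tRNA counts described below, with the anticodon in capitals.
mt-Tp: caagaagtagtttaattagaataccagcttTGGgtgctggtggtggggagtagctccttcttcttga
mt-Tq: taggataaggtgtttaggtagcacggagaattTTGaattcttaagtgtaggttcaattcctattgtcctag
mt-Ts1: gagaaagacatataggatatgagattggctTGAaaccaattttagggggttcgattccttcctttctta
mt-Te: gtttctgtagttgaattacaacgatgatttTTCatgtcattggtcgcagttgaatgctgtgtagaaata

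Several neighbours overlap, so a read in the shared bases cannot be given to 1 gene by position. The largest overlap joins mt-Atp8 (MT:7766-7969) and mt-Atp6 (MT:7927-8607), subunits of the ATP synthase, which share 43 bases. The end of the first gene and the start of the second are shown with the shared bases in capitals.
mt-Atp8 3' end: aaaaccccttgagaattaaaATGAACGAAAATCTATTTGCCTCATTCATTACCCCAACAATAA
mt-Atp6 5' end: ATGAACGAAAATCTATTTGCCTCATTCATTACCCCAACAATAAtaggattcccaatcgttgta

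Nuclear chromosomes also carry copies of mitochondrial genes, annotated as unprocessed pseudogenes, and their sequence bears directly on the counts. A cluster of 7 copies lies on chromosome 1 between 24611535 and 24616197, and 2 more lie on chromosome 2 between 22587291 and 22589647. Gm28661 copies mt-Co2, a core subunit of cytochrome c oxidase, and is identical over 681 aligned bases. Gm10925 (mt-Atp6), Gm28437 (mt-Co3) and Gm10222 (mt-Nd4l) are likewise 100% identical over their aligned lengths, as is Gm28439 over the first 876 bases of mt-Nd4. Gm28438 differs from mt-Nd3 at 1 base (T3C). Gm13340 differs from mt-Co1 at 37 of 1545 bases. The first 90 bases of mt-Co2 and mt-Co1 are set beside their copies, with differing bases in capitals.
mt-Co2 bases 1 to 90: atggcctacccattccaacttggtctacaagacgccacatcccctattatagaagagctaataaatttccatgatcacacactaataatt
Gm28661, same stretch: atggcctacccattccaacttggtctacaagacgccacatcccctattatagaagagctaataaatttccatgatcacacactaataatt
mt-Co1 bases 1 to 90: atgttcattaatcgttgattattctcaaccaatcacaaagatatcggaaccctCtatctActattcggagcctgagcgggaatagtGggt
Gm13340, same stretch: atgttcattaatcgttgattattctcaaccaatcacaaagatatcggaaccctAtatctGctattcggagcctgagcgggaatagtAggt
Counted from 1 at the first base of mt-Co1, with the mitochondrial base first, the 3 differences in this stretch are C54A, A60G and G87A. A read from the mt-Co2 stretch matches both places equally.

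Mitochondrial transcripts took a larger share of the counts in isolated astrocytes than in flowthrough. In WT astrocytes the share was 15.9% in animal 201, 32.7% in 202 and 19.2% in 265. In aKO astrocytes it was 23.8% in 203, 11.1% in 205, 21.2% in 208, 23.1% in 221 and 36.5% in 222. Flowthrough stood at 5.09% and 12.9% in WT 201 and 202 and at 7.99% and 4.81% in aKO 203 and 205. Only the highest flowthrough library, WT 202, lay above the lowest astrocyte library, aKO 205. Astrocytes averaged 22.9% ± 8.33 (SD, n = 8) against 7.69% ± 3.74 (SD, n = 4) for flowthrough, a difference of 15.2 percentage points (exact permutation test, two-sided, p = 0.00808, smallest possible 0.00404). In bulk RNA, fewer cells of a type and less RNA per cell cannot be told apart.

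**Figure D1:**
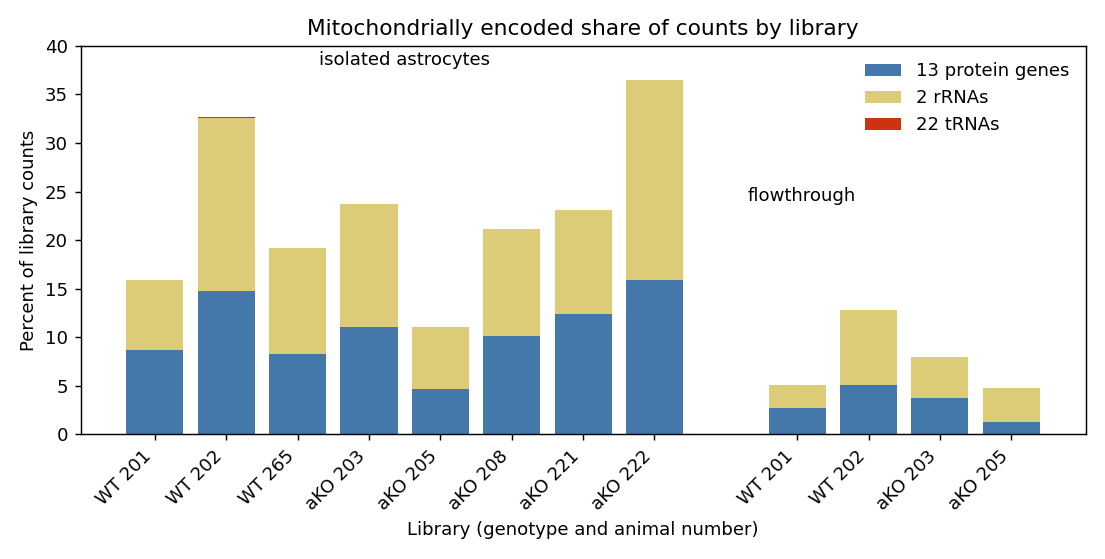
Percent of each library's counts on mitochondrially encoded protein genes, rRNAs and tRNAs, for 8 astrocyte and 4 flowthrough libraries (one bar a library). The tRNA layer is too thin to see, and astrocyte bars reach 11.1% to 36.5% against 4.81% to 12.9% in flowthrough.

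Within each of the 4 animals with both fractions, the astrocyte share was the higher. The ratio of astrocytes to flowthrough was 3.13 in animal 201, 2.54 in 202, 2.97 in 203 and 2.31 in 205. The animals kept the same order in both fractions, with 202 highest, then 203, 201 and 205. Over these pairs the mean difference was 13.2 percentage points (exact paired permutation test, two-sided, p = 0.125), and 0.125 is the smallest p that 4 pairs allow. Ttr, the transthyretin gene of choroid plexus, took 1.20% to 17.0% of counts in astrocytes and 8.17% to 32.1% in flowthrough. With Ttr taken out of the totals, the mean shares were 24.5% and 9.30%. The part of choroid plexus and other cell types in the difference was not tested.

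Per length, the large-subunit rRNA stood highest among the mitochondrial genes. Levels are given here in RPKM, reads scaled to gene length and to the library total, as means over 8 astrocyte libraries. mt-Rnr2, the large-subunit rRNA, stood at 66177 ± 26674 RPKM (SD, n = 8), above every other mitochondrial gene in all 8 libraries. Among protein genes, mt-Cytb, the complex III subunit, stood at 25036 ± 9658 RPKM, and mt-Nd1 of complex I at 21788 ± 8360 RPKM, with mt-Cytb the higher in 7 of 8 libraries. mt-Rnr1, the small-subunit rRNA, came next at 17605 ± 7559 RPKM and then mt-Co1, the catalytic subunit of complex IV, at 13969 ± 5235 RPKM, with mt-Rnr1 the higher in 6 of 8.

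The remaining protein genes spanned a wide range. The complex I genes mt-Nd2 and mt-Nd4 had 11550 ± 4040 and 6713 ± 1777 RPKM, each above its next neighbour in all 8 libraries. Then mt-Nd6, mt-Co3, mt-Nd5 and mt-Atp6, with means from 3096 to 3921 RPKM, were not separated, since each exceeded the next in only 4 or 5 of 8 libraries. With counts of their nuclear copies added, mt-Atp6 and mt-Co3 stood at 7100 ± 2936 and 7029 ± 2724 RPKM and mt-Co2 at 5590 ± 2069 RPKM. Each was then above mt-Nd6 in 7 of 8 libraries. The mt-Co2 value includes Gm13341, a copy that is not identical (16 mismatches over 672 aligned bases). Without the copies, mt-Nd3 had 2823 ± 1674 and mt-Co2 2095 ± 760 RPKM. At the bottom, mt-Atp8 had 309 ± 134 and mt-Nd4l 91.6 ± 33.1 RPKM, below all the others in every astrocyte library. In flowthrough the top 3 were mt-Rnr2 (25680 ± 13242 RPKM, SD, n = 4), mt-Nd1 (7690 ± 3878) and mt-Cytb (7304 ± 3905), and mt-Nd1 exceeded mt-Cytb in 4 of 4 libraries.

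**Figure D2:**
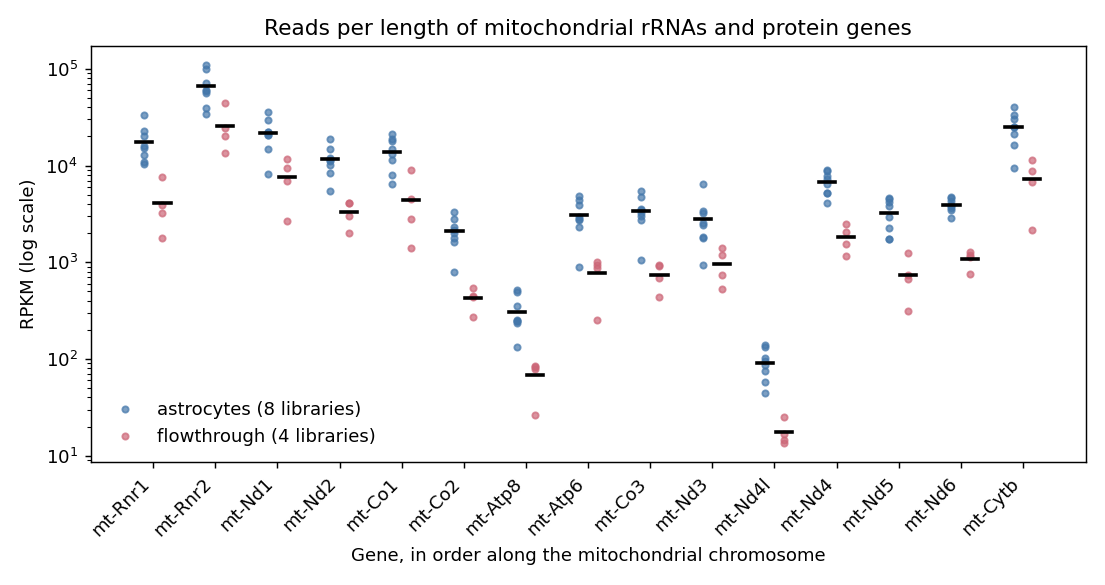
RPKM (log scale) of both rRNAs and the 13 protein genes in their order along the chromosome, with a point per library and a line at the mean. Levels range in astrocytes from means of 91.6 RPKM for mt-Nd4l to 66177 RPKM for mt-Rnr2, and the astrocyte mean lies above the flowthrough mean for every gene shown.

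The spread between astrocyte libraries differed from gene to gene. mt-Nd6, the protein gene of the minus strand, varied least, from 2843 RPKM in aKO 208 to 4710 in WT 202 with a median of 3842. mt-Nd3 varied from 933 RPKM in aKO 205 to 6462 in aKO 222, with a median of 2486. Library aKO 222 was also highest for mt-Rnr2, at 109888 RPKM, and library aKO 205 was lowest for mt-Rnr2, at 33901 RPKM.

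In RPKM, all 13 protein genes were higher in astrocytes than in flowthrough within each of the 4 animals. The ratios ran from 1.26-fold (mt-Nd3 in animal 205) to 8.24-fold (mt-Nd4l in animal 203). The TMM scaling of the fit divides by 1.43 for astrocyte aKO 205 and 0.754 for flowthrough aKO 205. On that scale mt-Nd3 in animal 205 was lower in astrocytes. The share of all genes higher in each of the 4 animals was not computed. In the fit to all 12 libraries, 9 of the 13 protein genes passed the test, as did 21 of the 36 mitochondrial genes tested, all higher and none lower. Of all 20637 genes tested, 8.52% were called higher. Calls rest on quasi-likelihood tests in edgeR, with Benjamini-Hochberg adjustment over all genes and a threshold of 0.05. The median log2 fold change of the protein genes was 1.73 (3.32-fold), where all genes tested had a median of 0.07. mt-Tw, a tRNA with 0 to 7 counts a library, did not pass the filter on low counts. Among those tested, 6 tRNAs reached the filter through astrocyte libraries alone, and without them edgeR called 19 of 30. At an unadjusted p under 0.05, 31 of the 36 passed, beside 32% of all genes. DESeq2 called 28, including all 13 protein genes and both rRNAs, beside 23.8% of all genes.

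Among the protein genes the smallest p belonged to mt-Nd4l, a small complex I subunit whose sequence is shared with a nuclear copy. It stood at 44.4, 90.7 and 139 RPKM (lowest, median and highest of 8 astrocyte libraries) and at 14.6, 25.2, 16.8 and 13.5 RPKM in flowthrough WT 201, WT 202, aKO 203 and aKO 205. The fractions did not overlap. Its log2 fold change was 2.22 (SE 0.40; edgeR with Benjamini-Hochberg adjustment, adjusted p = 0.00120). mt-Nd5 ran from 1743 to 4606 RPKM in astrocytes, with a median of 3371, and from 311 to 1247 in flowthrough, again without overlap. mt-Nd5 changed by 2.03 (SE 0.50), mt-Nd4 by 1.73 (SE 0.48), mt-Nd6 by 1.67 (SE 0.40) and mt-Nd2 by 1.66 (SE 0.52) on the log2 scale. mt-Nd1 (1.403, SE 0.57; edgeR with Benjamini-Hochberg adjustment, adjusted p = 0.0980) and mt-Nd3 (1.402, SE 0.57; adjusted p = 0.102) missed the threshold.

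Of the complex IV genes, mt-Co2 and mt-Co3 rose by 2.16 (SE 0.51) and 2.07 (SE 0.54) on the log2 scale. mt-Co1 had an estimate of 1.59 (SE 0.57), which did not pass (edgeR with Benjamini-Hochberg adjustment, adjusted p = 0.0648). The ATP synthase genes mt-Atp8 and mt-Atp6 rose by 2.06 (SE 0.47) and 1.91 (SE 0.57). mt-Cytb, the sole complex III member, had an estimate of 1.66 (SE 0.58; edgeR with Benjamini-Hochberg adjustment, adjusted p = 0.0589). It ran from 9399 to 39910 RPKM in astrocytes, with a median of 24984, and stood at 6775, 11395, 8869 and 2178 RPKM in flowthrough WT 201, WT 202, aKO 203 and aKO 205. WT 202 flowthrough lay above the lowest astrocyte library.

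**Figure D3:**
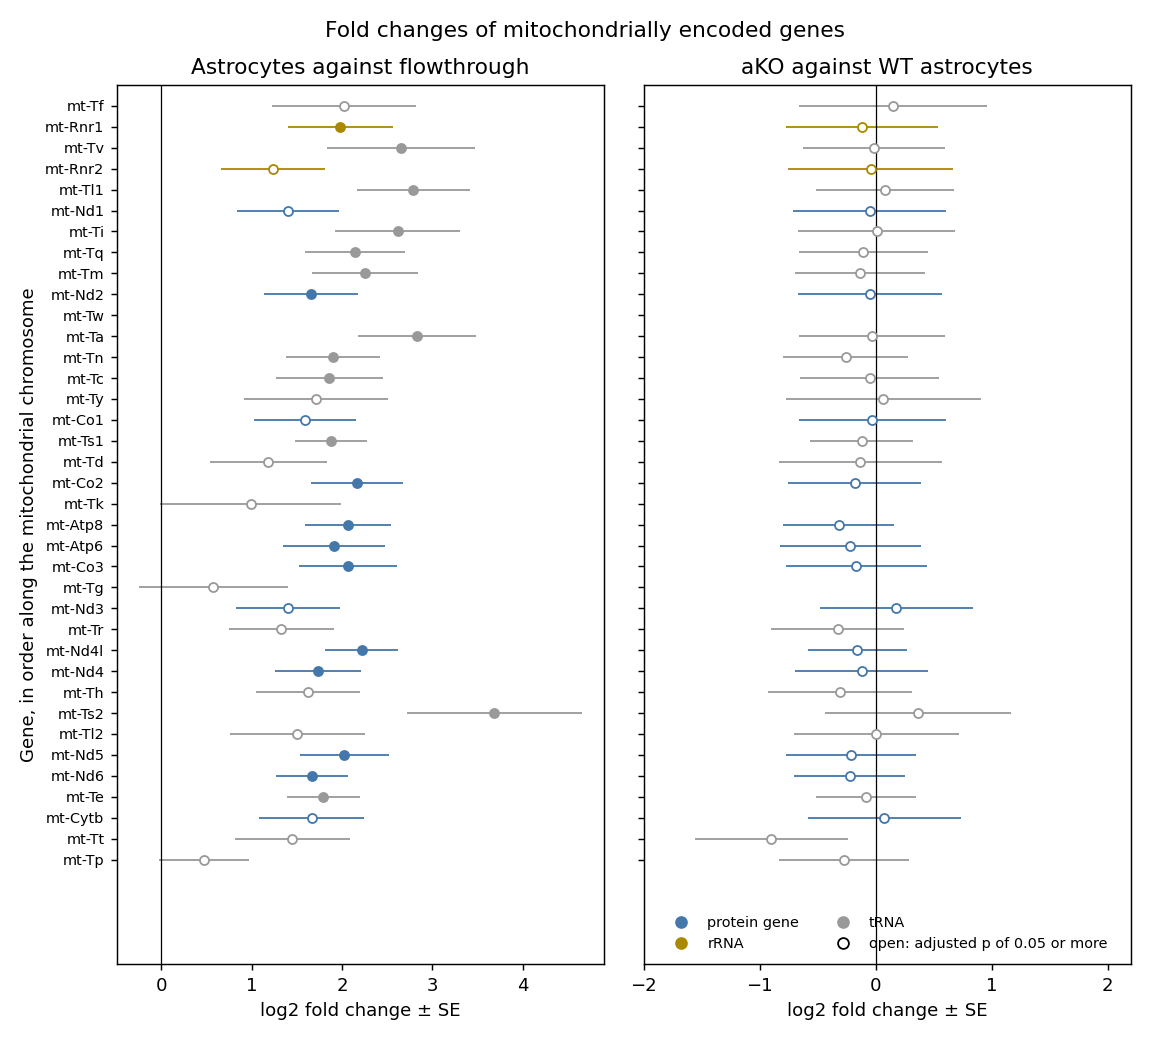
Log2 fold change with its SE from edgeR for each mitochondrial gene tested, astrocytes against flowthrough on the left and aKO against WT astrocytes on the right (filled points passed at an adjusted p of 0.05). On the left 21 of 36 genes are filled, all above 0, and on the right none of 34.

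With the animal as a block over the 8 libraries of the 4 paired animals, edgeR called 23 of 35 mitochondrial genes, beside 29.5% of all genes. The same 8 libraries without the animal term gave 15 calls, 7 of them protein genes and none an rRNA, beside 17.6% of all genes. mt-Co1 (1.46, SE 0.39; adjusted p = 0.0196, edgeR with Benjamini-Hochberg adjustment) and mt-Cytb (1.37, SE 0.39; adjusted p = 0.0262) passed with the animal as a block. Neither was called in the same libraries without the animal term. Calls were fewer without flowthrough WT 201, without flowthrough aKO 205 and without animal 202 in either fraction. Each of these fits had a flowthrough group without replicates. The share of all genes called fell as well, but without animal 202 far less than the count of mitochondrial calls. Most of the protein gene calls were lost without animal 202. mt-Nd4l and mt-Atp8 were called in each of these, as in all 23 alternatives, while mt-Co2 was called in 22, mt-Nd6 in 21 and mt-Nd2 in 12. On the TMM-scaled log2 CPM the fractions did not overlap for 11 of the 36 genes tested, all higher in astrocytes, where 5.01% of all genes were higher and 5.93% lower without overlap. These 11 included mt-Nd4l, mt-Nd4, mt-Nd5 and mt-Nd6.

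Whether the protein genes moved alike was tested on each gene's share of the summed protein gene counts. mt-Cytb took 26.2% ± 2.48 (SD, n = 8) of that sum in astrocytes and 25.1% ± 3.92 (SD, n = 4) in flowthrough. mt-Nd2 took 11.2% ± 1.37 and 11.8% ± 3.32. mt-Nd1 took 19.2% ± 2.65 and 22.6% ± 1.99. No gene's share differed after Benjamini-Hochberg adjustment over the 13 (exact permutation tests, two-sided, lowest adjusted p = 0.376), and the smallest unadjusted p was 0.0606, for mt-Nd1.

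Of the rRNAs, mt-Rnr1 passed the test between fractions and mt-Rnr2 did not. mt-Rnr1 had 10256, 15442 and 33020 RPKM (lowest, median and highest of 8) in astrocytes. In flowthrough WT 201, WT 202, aKO 203 and aKO 205 it had 1762, 7633, 3920 and 3230 RPKM. The fractions did not overlap in RPKM but did on the TMM-scaled CPM. mt-Rnr1 rose by 1.98 on the log2 scale (SE 0.59; edgeR with Benjamini-Hochberg adjustment, adjusted p = 0.0280). The call held in 18 of 23 alternatives and was lost without astrocyte WT 202, without flowthrough WT 201, aKO 203 or aKO 205, and in the 4 paired animals without the animal term. mt-Rnr2 had 13634, 44378, 24500.2 and 20206 RPKM in the same flowthrough libraries, and WT 202 lay within the astrocyte range. Its estimate was 1.24 (SE 0.57; edgeR with Benjamini-Hochberg adjustment, adjusted p = 0.149).

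Set against each other, mt-Rnr1 had 16.3 ± 2.99 counts per 100 of mt-Rnr2 in astrocytes (SD, n = 8), against 9.37 ± 1.10 in flowthrough (SD, n = 4). The lowest astrocyte library, aKO 203, stood at 12.9 and the highest flowthrough library, WT 202, at 10.4, so the fractions did not overlap. The log2 ratio differed by 0.78 (exact permutation test, two-sided, p = 0.00404, the smallest this design allows). This comparison was chosen after its values were seen. In the 4 paired animals the difference was 0.72, with the higher ratio in astrocytes in each (exact paired permutation test, p = 0.125, the smallest possible). Marker percents of astrocytes, oligodendrocytes, neurons, microglia, leukocytes, erythroid cells and choroid plexus also differed in mean between fractions. Of these, only microglia, leukocyte and erythroid markers did so without overlap. The part of these cell types in the differences of the rRNA ratio was not tested.

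rRNAs together took 52.7% ± 4.63 of mitochondrial counts in astrocytes (SD, n = 8) and 58.0% ± 11.6 in flowthrough (SD, n = 4). Protein genes took 47.2% ± 4.64 and 41.8% ± 11.7. The log2 ratio of rRNA to protein gene counts was 0.16 in astrocytes and 0.50 in flowthrough. This difference did not pass (exact permutation test, two-sided, p = 0.299). In the 4 paired animals the mean difference, astrocytes minus flowthrough, was -0.34 (exact paired permutation test, p = 0.125, the smallest possible). Within animals the rRNA share of mitochondrial counts stood at 45.7% in flowthrough against 45.4% in astrocytes in animal 201, 60.3% against 54.8% in 202, 53.18% against 53.16% in 203 and 72.9% against 57.3% in 205. It was nearly equal in 201 and 203. Flowthrough aKO 205 stood apart, with 2.73 rRNA counts per protein gene count where the other 11 libraries had 0.832 to 1.52. Without that library the log2 difference was -0.02.

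**Figure D4:**
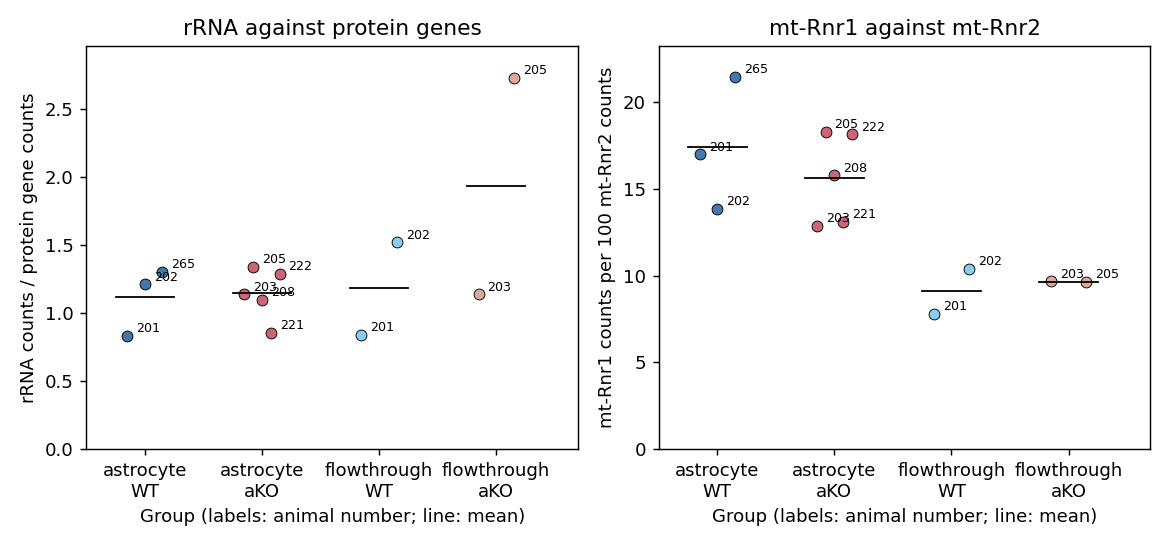
Ratio of rRNA to protein gene counts (left) and mt-Rnr1 counts per 100 mt-Rnr2 counts (right) in each library, by group, with animal numbers beside the points and lines at group means. On the right every astrocyte library (12.9 to 21.4) lies above every flowthrough library (7.80 to 10.4).

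tRNAs gave 0.116% ± 0.0211 of mitochondrial counts in astrocytes (SD, n = 8) and 0.197% ± 0.104 in flowthrough (SD, n = 4). mt-Tp, the last gene before the control region, held 63.5% of all tRNA counts in astrocytes and 82.9% in flowthrough. The 8 tRNAs of the minus strand had a median of mean levels of 112 RPKM in astrocytes, against 17.1 RPKM for the 14 of the plus strand. In flowthrough these medians were 26.7 and 4.34 RPKM. The tRNAs are 59 to 75 bases long, and whether their counts came from mature tRNAs or from precursors was not tested. Whether counting used strand is not stated in the sources used here, so a read across a minus-strand tRNA or mt-Nd6 may belong to the opposite transcript.

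Of 21 tRNAs tested between fractions, 11 were called higher and 0 lower, where 8.52% of all genes were called higher. Among them, mt-Tf, mt-Ti, mt-Ty, mt-Tk, mt-Tg and mt-Ts2 reached the count filter through astrocyte libraries alone, a route that builds in a difference. Without these 6, edgeR called 9 of 15 tRNAs. mt-Tq had 123, 251 and 779 RPKM (lowest, median and highest of 8) in astrocytes and 21.8 to 106 RPKM in flowthrough, and rose by 2.14 on the log2 scale (SE 0.55). mt-Ts1 (1.88, SE 0.40) and mt-Te (1.79, SE 0.40) rose as well, and neither overlapped between fractions. mt-Tp did not: it had 848, 2812 and 3823 RPKM in astrocytes and 1335, 2199, 892 and 2211 RPKM in flowthrough WT 201, WT 202, aKO 203 and aKO 205. All flowthrough values fell inside the astrocyte range, and its estimate was 0.48 (SE 0.50; edgeR with Benjamini-Hochberg adjustment, adjusted p = 0.541). It was the lowest estimate of the 36 and stood at -0.12 (SE 0.57) with the animal as a block. mt-Ts2, a serine tRNA with 5 to 53 counts a library in astrocytes and 0 to 4 in flowthrough, had too few counts for a fold to be read.

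The 9 nuclear copies followed here all carried counts. mt-Co2 held 37.6% ± 0.761 of the counts assigned to it and its copies in astrocytes (SD, n = 8), and 38.4% ± 1.16 in flowthrough (SD, n = 4). mt-Atp6 held 43.9% and 46.0%, mt-Nd4l 43.2% and 51.0%, and mt-Co3 48.4% and 49.9%. mt-Nd3 held 80.4% and 87.4%, mt-Co1 87.8% and 89.7%, and mt-Nd4 96.2% and 98.0%. Every 50-base window of mt-Co2 also occurs in another annotated transcript, as do 99.9% of those of mt-Co3, 99.5% of mt-Atp6, 98.8% of mt-Nd4l and 98.0% of mt-Nd3. For mt-Nd4 it is 62.2% and for mt-Co1 51.1%, while mt-Nd1, mt-Nd6, mt-Cytb, mt-Atp8 and mt-Rnr1 share none. mt-Nd2 shares 8.19%, mt-Nd5 7.61% and mt-Rnr2 1.04% with other transcripts, whose counts were not examined. The search covered annotated transcripts only. mt-Atp8 lies between mt-Co2 and mt-Atp6, whose copies Gm28661 and Gm10925 are neighbours on chromosome 1. Whether the stretch between these copies also carries mt-Atp8 was not tested. Counts of mt-Co2, mt-Co3, mt-Atp6, mt-Nd4l and mt-Nd3 and of their copies cannot be told apart by sequence over most of their length. How reads with several matches were treated is not stated in the sources used here.

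**Figure D5:**
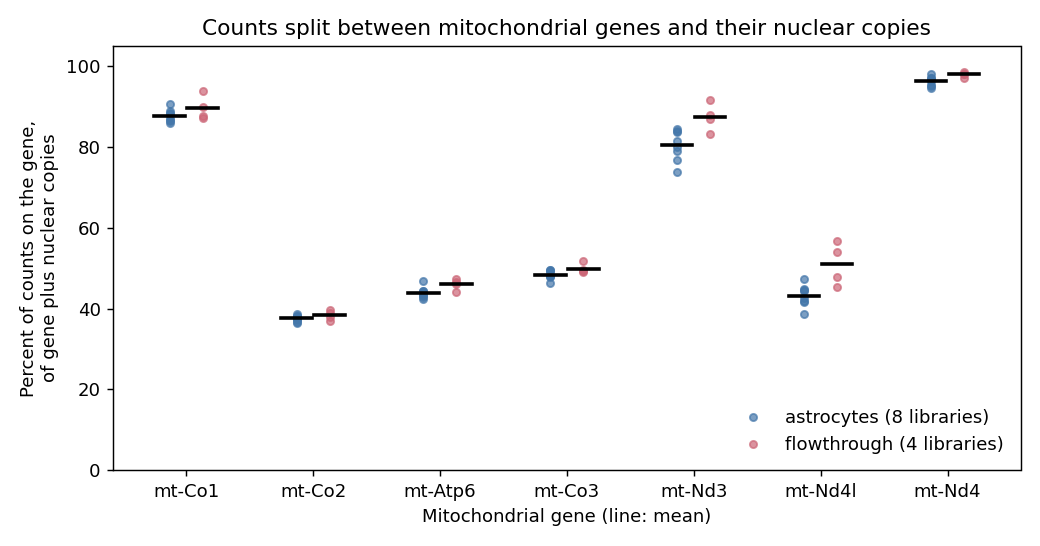
Percent of counts on each mitochondrial gene, of those on the gene and its nuclear copies together, with a point per library and a line at the mean. mt-Co2, mt-Atp6, mt-Co3 and mt-Nd4l lie between 36.5% and 56.7%, and mt-Nd4 between 94.7% and 98.5%, in every library.

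The copies followed their mitochondrial genes. All 9 were called higher in astrocytes, by 1.93 (Gm29216) to 2.71 (Gm10222) on the log2 scale, where 8.52% of all genes were called higher. The share held by the mitochondrial gene was lower in astrocytes for mt-Nd3, mt-Nd4l and mt-Nd4 (exact permutation tests, two-sided, Benjamini-Hochberg over 7 genes, adjusted p = 0.0377 for each). With the copies' counts added to their genes, 21 mitochondrial genes were called, the same 21 as without them.

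Between genotypes, no mitochondrial gene passed in astrocytes. Of 34 tested, edgeR called 0, beside 0.0264% of all genes (0.0211% higher and 0.00528% lower), DESeq2 called 0, and 0 had an unadjusted p under 0.05. The mitochondrial share was 23.1% ± 9.05 in aKO (SD, n = 5) and 22.6% ± 8.88 in WT (SD, n = 3), a difference of 0.538 percentage points (exact permutation test, two-sided, p = 0.964, smallest possible 0.0357). The WT values lay within the range of the aKO values.

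Protein gene estimates ran from -0.32 (mt-Atp8, SE 0.48) to 0.18 (mt-Nd3, SE 0.66), with a median of -0.16, where all genes tested had a median of 0.02. mt-Atp8 stood at 249, 517 and 248 RPKM in WT 201, 202 and 265 and at 489, 132, 254, 233 and 352 RPKM in aKO 203, 205, 208, 221 and 222. Its highest library was WT 202 and its lowest aKO 205, and the genotypes overlapped. mt-Co1 had 11474, 21374 and 7986 RPKM in WT and 14814, 6432, 13195, 18685 and 17795 RPKM in aKO, in the same order of animals, again with overlap. Its estimate was -0.03 (SE 0.63). mt-Cytb had an estimate of 0.08 (SE 0.66), mt-Nd1 of -0.05 (SE 0.66), mt-Rnr1 of -0.11 (SE 0.65) and mt-Rnr2 of -0.04 (SE 0.71).

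No mitochondrial gene had genotype groups without overlap, where 0.929% of all genes were higher and 0.475% lower in aKO without overlap. No protein gene's share of the protein gene sum differed (exact permutation tests, two-sided, adjusted p = 0.929 for each of the 13). The ratio of rRNA to protein gene counts differed by 0.05 on the log2 scale (exact permutation test, p = 0.929) and that of mt-Rnr1 to mt-Rnr2 by -0.15 (p = 0.464). Standard errors were 0.43 to 0.66 for the protein genes. With library 202 counted as aKO, edgeR again called 0, but the estimate of each of the 13 protein genes was above 0, up to 0.72 for mt-Co1.

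In flowthrough, edgeR called 0 of 36 mitochondrial genes between genotypes, beside 0% of all genes, with 0 at an unadjusted p under 0.05 and 0 by DESeq2. The share was 6.40% in aKO and 8.98% in WT, from 2 libraries each (exact permutation test, two-sided, p = 0.667, smallest possible 0.333). Protein gene estimates ran from -0.74 (mt-Nd5, SE 0.73) to 0.30 (mt-Nd3, SE 0.87). The difference between the genotype effects of the fractions was called for 0 of 36 genes as well, beside 0% of all genes (0 at an unadjusted p under 0.05 and 0 by DESeq2). It ran from -0.30 (mt-Co2, SE 0.92) to 0.67 (mt-Co1, SE 1.06) among the protein genes.

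Few nuclear genes that serve the mitochondrial genome were called between fractions, where 17% of all genes tested were called in either direction. Of 37 nuclear subunits of complex I, edgeR called 0 (7 at an unadjusted p under 0.05), and their median log2 fold change was -0.58. Subunits of complex III (9 genes), complex IV (10) and ATP synthase (16) also had 0 calls in edgeR (1, 0 and 6 at an unadjusted p under 0.05), with medians of -0.21, -0.50 and -0.72. Of 75 tested mitochondrial ribosomal protein genes, 2 fell, Mrpl14 by 1.19 (SE 0.38) and Mrpl23 by 1.15 (SE 0.38) on the log2 scale. The differences between these lists and the mitochondrial genes were not tested.

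Among 16 genes of mitochondrial DNA replication and maintenance, 1 fell: Ssbp1, the mitochondrial single-stranded DNA-binding protein, had 44.7 to 78.1 CPM in astrocytes and 81.9 to 121 CPM in flowthrough, without overlap. It fell by 0.97 (SE 0.29; edgeR with Benjamini-Hochberg adjustment, adjusted p = 0.0311). Of 11 transcription genes edgeR called 0 (0 at an unadjusted p under 0.05), with Tfam, which packages and transcribes mitochondrial DNA, at 0.26 (SE 0.31). Of 30 RNA processing genes it called 0 (3 at an unadjusted p under 0.05), and Pnpt1, a mitochondrial polynucleotide phosphorylase, had an estimate of 1.10 (SE 0.38; edgeR with Benjamini-Hochberg adjustment, adjusted p = 0.0589). Of 19 tRNA synthetases, Mars2 rose by 1.04 (SE 0.33) and Lars2 fell by 1.76 (SE 0.56). Lars2 had 7414, 5583, 12377 and 41121 CPM in flowthrough WT 201, WT 202, aKO 203 and aKO 205, the first 2 within the astrocyte range of 1573 to 12314 CPM. Of 11 biogenesis regulators, Ppargc1a, a coactivator of mitochondrial gene programs, rose by 1.17 (SE 0.33; edgeR with Benjamini-Hochberg adjustment, adjusted p = 0.0208). It had 20.9 to 71.3 CPM in astrocytes and 10.6 to 28.6 CPM in flowthrough, with overlap. Between aKO and WT astrocytes, 0 members of these 10 lists were called, and Mrps12 and Mrpl54 had an unadjusted p under 0.05.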

How the data were processed

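RNA of 12 libraries, each animal giving at most 1 per fraction, was amplified with Takara Clontech SMARTer v1, per the labels. The submitters' processing notes name the build GRCm38 and the tools featureCounts 1.4.6-p5, Subread, STAR 2.5.1a and bcl2fastq. Not given in the sources used here: annotation release, strand setting and handling of multiply matching reads. The deposited files hold, per Ensembl gene, the count, the CPM (count scaled to the library total) and the RPKM computed by the authors. The deposited CPM and RPKM were checked against the counts, and values printed were computed from the counts. GENCODE vM21 named 40254 of 41388 genes, with all 37 mitochondrial positions identical.

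Counts were tested with edgeR 4.0.16 (TMM, robust quasi-likelihood, filterByExpr with minimum count 10 and minimum total 15) in R 4.3.3, with Benjamini-Hochberg adjustment over all genes tested and a threshold of 0.05. Aside from aKO against WT astrocytes, which used 8 libraries, comparisons used 1 fit of 4 groups. SE is the log2 fold change over the square root of F. Single values used exact permutation tests (scipy 1.17.1). The scripts were tested on simulated data, with changes put into randomly chosen genes. For aKO against WT astrocytes, edgeR recovered 6% of 2-fold and 43% of 4-fold changes. Between fractions it recovered 5% and 48%. Alternatives were DESeq2 1.42.0 and its size factors, no filter, scaling without mitochondrial genes or Ttr, each library left out, library 202 as aKO, and an animal block. Those chosen after seeing the data were leaving out animal 202 or libraries 222 and 265, adding the nuclear copies, and the ratio of both rRNAs.

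Same-numbered fractions come from the same brain, so the animal pairs them. Across genes, the deviations of an animal's fractions from their group means had r = 0.0823 (201), 0.424 (202), 0.166 (203) and 0.404 (205). Libraries within a group differed beyond sampling noise.

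The members and lists were chosen with earlier results of these data known. The rule named all protein genes and rRNAs, the listed nuclear copies and the 4 tRNAs of highest mean count. In each nuclear list it named up to 6 genes of smallest p between fractions and 2 between genotypes, of which the text gives a selection. mt-Tw, mt-Ts2 and the other tRNAs that reached the count filter through astrocyte libraries alone were named after their values were seen. Lists of nuclear subunits and mitochondrial ribosomal proteins were compiled by symbol after the files were seen.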

Additional observations from a re-analysis of the deposited data

Results flagged for a closer look

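Outlying libraries were sought in 54 groups of values, and 4 were found, where chance marks about 1 in 20 groups of this kind. Among the 5 aKO astrocyte libraries, mt-Rnr1 stood at 31535 CPM in library 222, far above the others. The same library had 2249 CPM of mt-Nd3, the highest of all 8 astrocyte libraries. Among the 4 flowthrough libraries, aKO 205 was far below the others for the ATP synthase genes, with 5.42 CPM of mt-Atp8 and 172 CPM of mt-Atp6.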

How the results depend on the processing

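The count of mitochondrial genes called between fractions, 21, ranged from 7 to 23 with each library left out, and was 10 without animal 202 in either fraction, 28 by DESeq2 and 23 with the replicate block. Of all genes tested, 17% were called in the main fit, 23.8% by DESeq2 and 29.5% with the replicate block. With each astrocyte library left out, 14 to 23 mitochondrial genes were called, beside 12.5% to 19.9% of all genes. The counts of 7 and 10 came from fits with a flowthrough group without replicates. The difference in mitochondrial share under the replicate block was 13.2 percentage points, past no threshold with 4 pairs (exact paired permutation test, p = 0.125). All genotype counts stayed at 0 in every alternative run.

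Genotype estimates near 0 changed sign. With library 202 counted as aKO, the astrocyte estimates were 0.40 for mt-Nd1, 0.31 for mt-Nd2, 0.72 for mt-Co1, 0.20 for mt-Co2, 0.43 for mt-Atp8, 0.40 for mt-Atp6, 0.28 for mt-Co3, 0.41 for mt-Nd4l, 0.26 for mt-Nd4, 0.34 for mt-Nd5, 0.0417 for mt-Nd6, 0.23 for mt-Rnr1 and 0.60 for mt-Rnr2. Without libraries 222 and 265 they were -0.19 for mt-Nd3 and -0.44 for mt-Cytb. The difference between fractions in the genotype effect was -0.19 for mt-Co1 with the replicate block, and for mt-Co2 0.12 with 202 as aKO and 0.0633 without animal 202. Without Ttr in the totals, the genotype difference in share was -0.147 percentage points. With mt-Rnr1 as the sole rRNA, the log2 ratio to protein genes differed by 0.36 between fractions and by -0.0822 between genotypes. The causes were not tested.

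With each library left out, astrocyte genotype estimates ranged from -0.45 to 0.29 for mt-Nd1, -0.46 to 0.22 for mt-Nd2, -0.26 to 0.56 for mt-Co1, -0.58 to 0.0797 for mt-Co2, -0.57 to 0.20 for mt-Atp8, -0.54 to 0.22 for mt-Atp6, -0.57 to 0.15 for mt-Co3, -0.52 to 0.51 for mt-Nd3, -0.37 to 0.25 for mt-Nd4l, -0.39 to 0.15 for mt-Nd4, -0.49 to 0.18 for mt-Nd5, -0.28 to 0.49 for mt-Cytb, -0.67 to 0.13 for mt-Rnr1 and -0.46 to 0.45 for mt-Rnr2. In flowthrough mt-Nd3 ranged from -0.26 to 1.04. The difference between genotype effects ranged from -0.26 to 1.66 for mt-Co1 and from -0.62 to 0.19 for mt-Co2. The genotype difference in share ranged from -2.80 to 5.58 percentage points and in the rRNA to protein log2 ratio from -0.15 to 0.17.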

Other observations

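For the 8 astrocyte libraries, the log2 ratio of mitochondrial to all other counts was set against 9 lists of cell type markers. Each list was taken as the log2 of its percent of those other counts. None of the 9 relations passed Benjamini-Hochberg adjustment. The lowest p was with 10 neuronal markers, with Pearson's r = 0.664 (exact permutation p = 0.0746, adjusted 0.473) and Spearman's rho = 0.762 (exact permutation p = 0.0368, adjusted 0.331). Without the 2 libraries farthest from the median of the markers, r was 0.615. For the microglial markers r was -0.591 (exact permutation p = 0.121) and rho -0.571 (p = 0.151), with r = -0.682 without the 2 farthest libraries. For the erythroid markers r was 0.221 (exact permutation p = 0.611) and rho 0.405 (p = 0.327), and r was 0.834 without the 2 farthest libraries. For the choroid plexus markers r was -0.547 (exact permutation p = 0.158) and rho -0.619 (p = 0.115), with r = -0.420 without the 2 farthest libraries.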
